A study of Rattus norvegicus with 16 samples.

Results

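The pontine nuclei contralateral to the lesion were compared between rats given lysolecithin and rats given saline. The arrays were chosen by their titles: lysolecithin control on days 10 and 37, and saline control on days 10 and 37, 4 of the 16 arrays of the series. A title with an intervention, a day and the word control was taken as the contralateral nuclei. Each array held 1 condition, so that each group had n = 2 and the 2 days stood in for replicates. Lysolecithin is a detergent-like lipid that strips myelin from axons, and the lesion lay at a distance from the cell bodies in the nuclei. The 2 contralateral arrays after transection of the axons and 1 array labelled as a healthy control served as outside references. The lesion-side arrays of lysolecithin and saline on the same days served for a comparison between sides. Strain, age and the number of animals behind each array are not given in the labels. The main model fitted intervention and day, and the contralateral transection arrays also entered it. Its p-values therefore rest in part on the spread left between arrays once a day difference shared by the interventions is taken out. The test draws this spread toward that of other probe sets of like signal. These weighed more, with 8.76 prior against 2 residual degrees of freedom.

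The pontine nuclei relay cortical input to the cerebellum, and most of their axons cross the midline to reach it. In the study these contralateral nuclei were the controls for the lesioned side, so the comparison asks how alike the control nuclei were after the 2 interventions. Resting microglia, the resident macrophages of the brain, carry little of the class II major histocompatibility complex (MHC), the protein pair that presents peptides to helper T cells. When microglia react to a distant or nearby injury they increase MHC class II, complement components and Fc receptors, and nearby astrocytes increase intermediate filaments such as vimentin.

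Values are MAS5 signals per probe set, given as log2(signal + 16), with the deposited call of Present, Marginal or Absent. The 4 arrays called 3709 to 4025 probe sets Present, and the other 12 called 3510 to 4140. Neuronal Snap25, Syt1, Nefl and Nefm, the astrocyte water channel Aqp4 and the myelin gene Mbp each had a probe set called Present on all 16 arrays. These genes mark nervous tissue in general and do not tell the pontine nuclei from other regions. No probe set of Th or Dbh, which mark catecholamine neurons, was Present on any array, and the cerebellar Gabra6 was Present on 2. The ratio of 3′ to 5′ beta-actin signal, a measure of RNA integrity, was 1.35 and 1.27 on the saline arrays and 1.17 and 1.16 on the lysolecithin arrays of days 10 and 37. The same ratio for GAPDH was 1.16 and 1.22 on the saline arrays and 1.21 and 1.15 on the lysolecithin arrays, and these overlapped. The part of RNA integrity in the results was not tested. Across the 4413 probe sets Present on at least 3 of the 16 arrays, the closest pair among the 6 contralateral arrays and the healthy array was saline on day 10 with lysolecithin on day 37 (Pearson r = 0.983). The arrays of 1 group correlated at 0.977 for saline and 0.974 for lysolecithin, so intervention did not separate the arrays over all probe sets.

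A probe set of the metallothionein family was the only one to pass the test as higher after lysolecithin, and none passed as lower. The largest differences among named genes were in immune and glial genes such as Cd74, a chaperone of MHC class II, and none of these passed the test. A linear model with intervention and day over the 6 contralateral arrays (limma, Benjamini-Hochberg adjustment over the 4413 probe sets) passed 1 probe set at an adjusted p under 0.05, which was higher after lysolecithin (0.0227% of those tested), and none that was lower (0%). At an unadjusted p under 0.05 the limma model had 100 higher and 59 lower. Counted without a test, 45 probe sets were at least 1.5-fold higher after lysolecithin on both days (1.02% of those tested), 36 of them with 1 gene symbol and standing for 27 genes. Another 20 were at least 1.5-fold lower on both days (0.453%), 12 of them with 1 symbol, for 12 genes. Of the 45, 40 were called Present on both lysolecithin arrays and 16 on neither saline array. In 35 of the 45 the difference was larger on day 10 than on day 37.

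Most of the array did not repeat between days. The median difference over all probe sets was -0.03 on day 10 and 0.01 on day 37, with SDs of 0.47 and 0.43. The differences of the 2 days had a Pearson r of -0.134 across the 4413 probe sets, which are not independent replicates, and 41.9% had the same sign. On day 10 alone 15.4% of probe sets differed by at least 1.5-fold between lysolecithin and saline, and on day 37 13.2%. The 2 saline arrays differed that much from each other in 9.97%, the 2 lysolecithin arrays in 12.8% and the 2 transection contralateral arrays in 15.7%. The shares between the interventions were thus above those between days of saline and of lysolecithin, and below that of transection. The 1.5-fold bound was met just inside by Aif1 in probe set U17919_s_at and missed by Psme1 in D45249_g_at among the higher ones, and met by Pafah1b1 and missed by Lsamp among the lower ones.

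**Figure D1:**
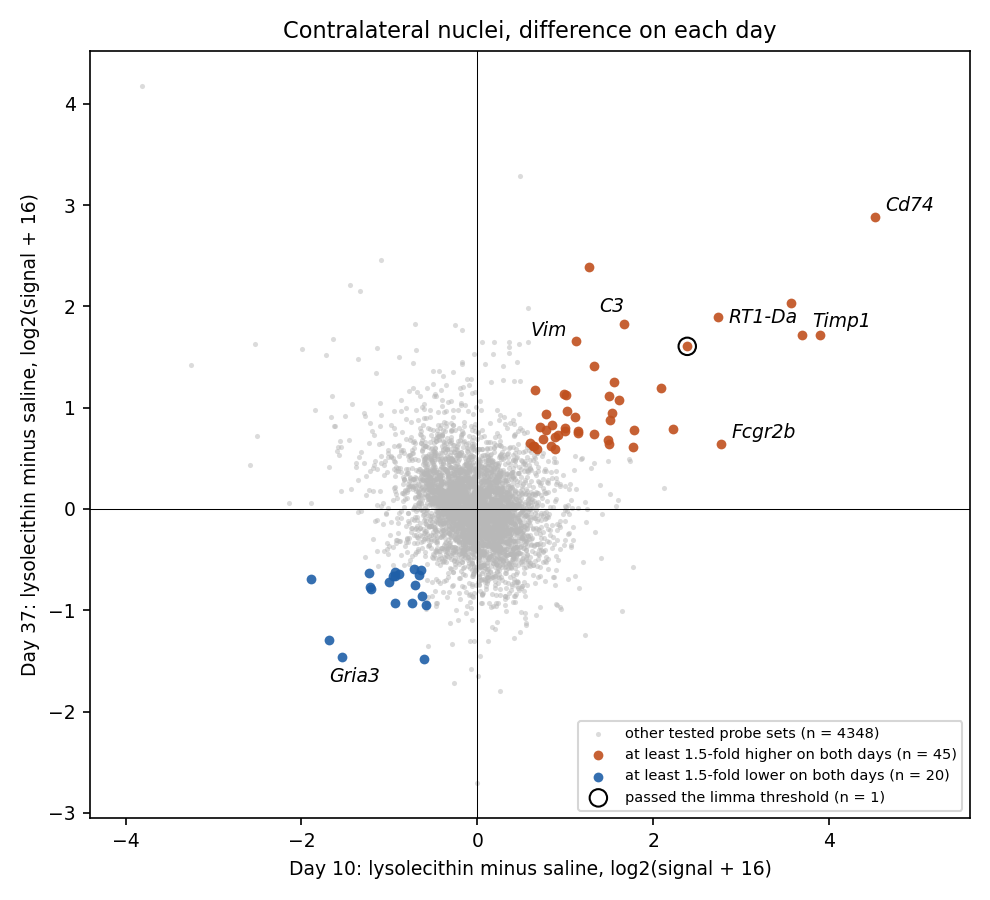
Difference between lysolecithin and saline contralateral arrays on day 10 (horizontal axis) and day 37 (vertical axis), in log2(signal + 16), 1 point for each of the 4413 probe sets. Orange points are the 45 at least 1.5-fold higher on both days, blue points the 20 at least 1.5-fold lower, and the ring marks the probe set that passed the limma threshold, while the grey points spread around 0 with no shared direction (r = -0.134).

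The single probe set past the threshold, rc_AI176456_at, is annotated to 2 genes of the metallothionein family and so is not named further. Metallothioneins are small cysteine-rich proteins that bind zinc and copper. Its log2 signal was 10.90 and 11.63 on the saline arrays of days 10 and 37, and 13.29 and 13.24 on the lysolecithin arrays. All 4 calls were Present, and the groups did not overlap. It rose 3.99-fold (SE 0.25 on the log2 scale; limma adjusted p = 0.0386). The healthy array had 11.33, and the transection contralateral arrays had 12.37 and 13.37. The call was lost when the day 10 lysolecithin array was left out (limma adjusted p = 0.206), when the day term (0.0858), the filter on detection (0.387) or the trend over intensity (0.24) was dropped, and with quantile normalization (0.0535) or median centring (0.0758).

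A second probe set annotated to several genes, among them metallothioneins, rc_AI102562_at, had 10.97 and 11.37 after saline and 12.08 and 12.28 after lysolecithin. Its difference of 1.01 did not pass (limma adjusted p = 0.134).

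Of the 9 tested genes of the MHC class II list, 8 were higher after lysolecithin on both days, against 20.2% of all tested probe sets, and 3 were at least 1.5-fold higher on both days, against 1.02%. The median of the list was 1.09 on day 10 and 0.45 on day 37, beside -0.03 and 0.01 over all probe sets. No member passed the limma threshold. To show what these genes share beside their values, the 200 bases before the annotated start of the 3 members past 1.5-fold are given from RefSeq (build GRCr8), 5′ to 3′ on the strand of the gene, with capitals for each CCAAT or its reverse complement ATTGG, the core of the Y box. The Y box binds the factor NF-Y, and together with the X box it recruits the class II transactivator in MHC class II genes. The stretches are chr18:56527006-56527205 on the plus strand for Cd74, chr20:4515215-4515414 on the plus strand for RT1-Da and chr20:4604119-4604318 on the minus strand for RT1-Bb.
Cd74: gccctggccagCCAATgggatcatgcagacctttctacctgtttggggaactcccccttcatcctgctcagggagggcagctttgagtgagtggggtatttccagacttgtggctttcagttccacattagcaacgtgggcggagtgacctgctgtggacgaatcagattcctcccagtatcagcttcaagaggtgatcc
RT1-Da: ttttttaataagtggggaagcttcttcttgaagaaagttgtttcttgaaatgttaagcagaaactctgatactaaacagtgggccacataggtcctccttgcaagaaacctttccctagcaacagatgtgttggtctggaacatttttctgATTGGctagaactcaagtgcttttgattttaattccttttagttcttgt
RT1-Bb: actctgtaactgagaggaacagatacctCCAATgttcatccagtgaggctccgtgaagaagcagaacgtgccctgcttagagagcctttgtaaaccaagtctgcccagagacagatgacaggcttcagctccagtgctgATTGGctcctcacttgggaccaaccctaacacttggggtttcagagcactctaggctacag
In RT1-Da the match lay at bases -49 to -45 from the start, in RT1-Bb at -61 to -57 with a second at -172 to -168, and in Cd74 at -189 to -185.

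Promoters of 300 bases (250 before to 50 after the start) were matched for 8 of the 9 tested members, and all 8 held CCAAT on 1 strand or the other. The share was 39% over 2265 tested genes with a promoter and 37.7% over 27457 RefSeq promoters. Of the 27 genes past 1.5-fold higher on both days, 19 had a promoter, and 5 of these held it (26.3%). The other motifs were rarer. The interferon-stimulated response element GAAANNGAAA, searched on both strands like the other motifs, was found in 1 of the 8, Ctss, against 3.77% of all promoters. The gamma-activated site TTCNNNGAA was found in none, against 8.68%. Matches could overlap, and a match describes letters only.

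Cd74 encodes the invariant chain, which guides MHC class II proteins to the compartment where peptides are loaded. Its probe set X14254cds_g_at had the largest mean difference among probe sets with 1 symbol that followed the naming rule. The log2 signal was 6.31 and 6.98 after saline, both called Absent, and 10.83 and 9.86 after lysolecithin, both Present, on days 10 and 37. Group means were 6.64 ± 0.47 and 10.34 ± 0.68 (SD, n = 2), at least 13.0-fold higher after lysolecithin (SE 0.68 on the log2 scale; limma adjusted p = 0.114). A second probe set, X13044_at, was Present on all 4 arrays, with 7.61 and 8.60 after saline and 11.51 and 10.32 after lysolecithin, a mean difference of 2.81 (SE 0.47; limma adjusted p = 0.0683). The overlapping probe set X13044_g_at had a difference of 2.80. On both days and in all 3 probe sets the lysolecithin array was above both saline arrays, and the day 10 array was the highest of all.

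RT1-Da, the alpha chain of a rat MHC class II pair, had the next largest difference of this list. Its probe set M15562_g_at read 9.29 and 9.33 after saline and 12.03 and 11.23 after lysolecithin. The saline arrays were close to each other and the groups did not overlap, and the mean difference was 2.32 (SE 0.41; limma adjusted p = 0.102), a 4.99-fold difference. RT1-Bb, a beta chain, had 8.03 and 8.17 after saline and 8.91 and 8.89 after lysolecithin, with a difference of 0.80 (limma adjusted p = 0.79). RT1-Db1 and RT1-Ba, a further beta and alpha chain, had day 10 differences of 1.73 and 1.30 and day 37 differences of 0.47 and 0.41. The peptide-exchange chain RT1-DMb had 1.09 and 0.39, and the protease Ctss, which trims the invariant chain, 0.53 and 0.45. RT1-DOa, a modulator of peptide exchange, was alone in the list without a shared direction, at 0.10 and -0.16.

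MHC class I and interferon genes stood apart from the whole array by less. Of 10 tested genes for MHC class I and antigen processing, 6 were higher on both days, against 20.2% of all tested probe sets. The medians were 0.37 and 0.36, and none was past 1.5-fold higher on both days, against 1.02%. B2m, the light chain of all class I proteins, had differences of 0.15 and 0.50. Of 11 interferon-response genes 4 were higher on both days, against the same 20.2%, with medians of 0.38 and 0.11. Ifitm3, an interferon-induced membrane protein that limits virus entry, was the 1 member past 1.5-fold, with 9.64 and 9.74 after saline, 10.78 and 10.50 after lysolecithin and a difference of 0.96 (limma adjusted p = 0.27). Irf8, a myeloid transcription factor, had 1.42 on day 10 and -0.05 on day 37.

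Microglial and macrophage genes were higher after lysolecithin in 11 of 13 tested members on both days, against 20.2% of all probe sets. Past 1.5-fold on both days were 4, against 1.02%. The median was 0.90 on day 10 and 0.48 on day 37. None passed the limma threshold. The summed signal of the 13 genes was 18223 and 17924 on the saline arrays, 25772 and 21506 on the lysolecithin arrays, 22466 and 22040 on the transection contralateral arrays and 12903 on the healthy array. Bright members weigh most in a summed signal, here Ctsb, Spp1 and Ctsd. Their differences on days 10 and 37 were 0.36 and 0.04, -0.24 and 0.11, and 0.90 and 0.46. In bulk tissue more cells of a type and more RNA per cell cannot be told apart. Probe sets of Itgam, Csf1r and Cx3cr1, which define microglia, were Present on none of the 16 arrays, while Aif1 had a probe set Present on all 16.

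Fcgr2b, an inhibitory receptor for antibodies, had 6.83 and 7.77 after saline and 9.60 and 8.41 after lysolecithin, a difference of 1.71 (SE 0.41; limma adjusted p = 0.315). The day 10 lysolecithin array was the high one, and on day 37 the difference was 0.64. Lgals3, the galectin of phagocytes, was steadier, with 8.99 and 9.19 after saline and 10.61 and 10.27 after lysolecithin (difference 1.35, SE 0.24; limma adjusted p = 0.107). Aif1, the calcium-binding protein Iba1 of microglia, had 8.53 and 8.30 against 9.38 and 8.92 for probe set U10894_s_at, a difference of 0.73. Ptprc, the leukocyte phosphatase CD45, was near the detection limit: it was Absent on both saline arrays and Present on the day 37 lysolecithin array alone, and the lysolecithin mean was at least 1.80-fold higher. In the deposited series value table the sign of the Ptprc difference turned (-0.01). Coro1a, Cd53 and Cd37, of leukocyte cytoskeleton and surface, had 2.13, 1.48 and 1.51 on day 10 and 0.21, 0.48 and 0.15 on day 37.

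Complement had 9 tested genes, of which 5 were higher on both days and 3 past 1.5-fold on both, against 20.2% and 1.02% of all probe sets. The medians were 0.74 on day 10 and 0.32 on day 37. C3, the hub of the cascade, had 8.07 and 7.94 after saline and 9.74 and 9.76 after lysolecithin in probe set X52477_at. The day 37 saline value was called Absent. The groups did not overlap, at 8.003 ± 0.095 and 9.750 ± 0.011 (SD, n = 2), and the 3.36-fold difference of 1.75 missed the threshold (SE 0.27; limma adjusted p = 0.0683). The second C3 probe set, M29866_s_at, was Absent on both saline arrays, at 8.49 and 8.29, and Present after lysolecithin, at 10.04 and 9.54, at least 2.65-fold higher (limma adjusted p = 0.0683).

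Serping1, the inhibitor of C1, had 7.70 and 7.96 after saline and 9.20 and 9.08 after lysolecithin (difference 1.31; limma adjusted p = 0.134). C1qb, a chain of the C1q recognition protein made by microglia, had 10.07 and 10.14 against 11.85 and 10.92 (difference 1.28; limma adjusted p = 0.134). Its difference on day 10 was 1.78 and on day 37 0.78. C1s went from -0.36 on day 10 to 0.97 on day 37, and Cd59b, a membrane inhibitor of complement lysis, was close to saline at -0.02 and -0.10.

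**Figure D2:**
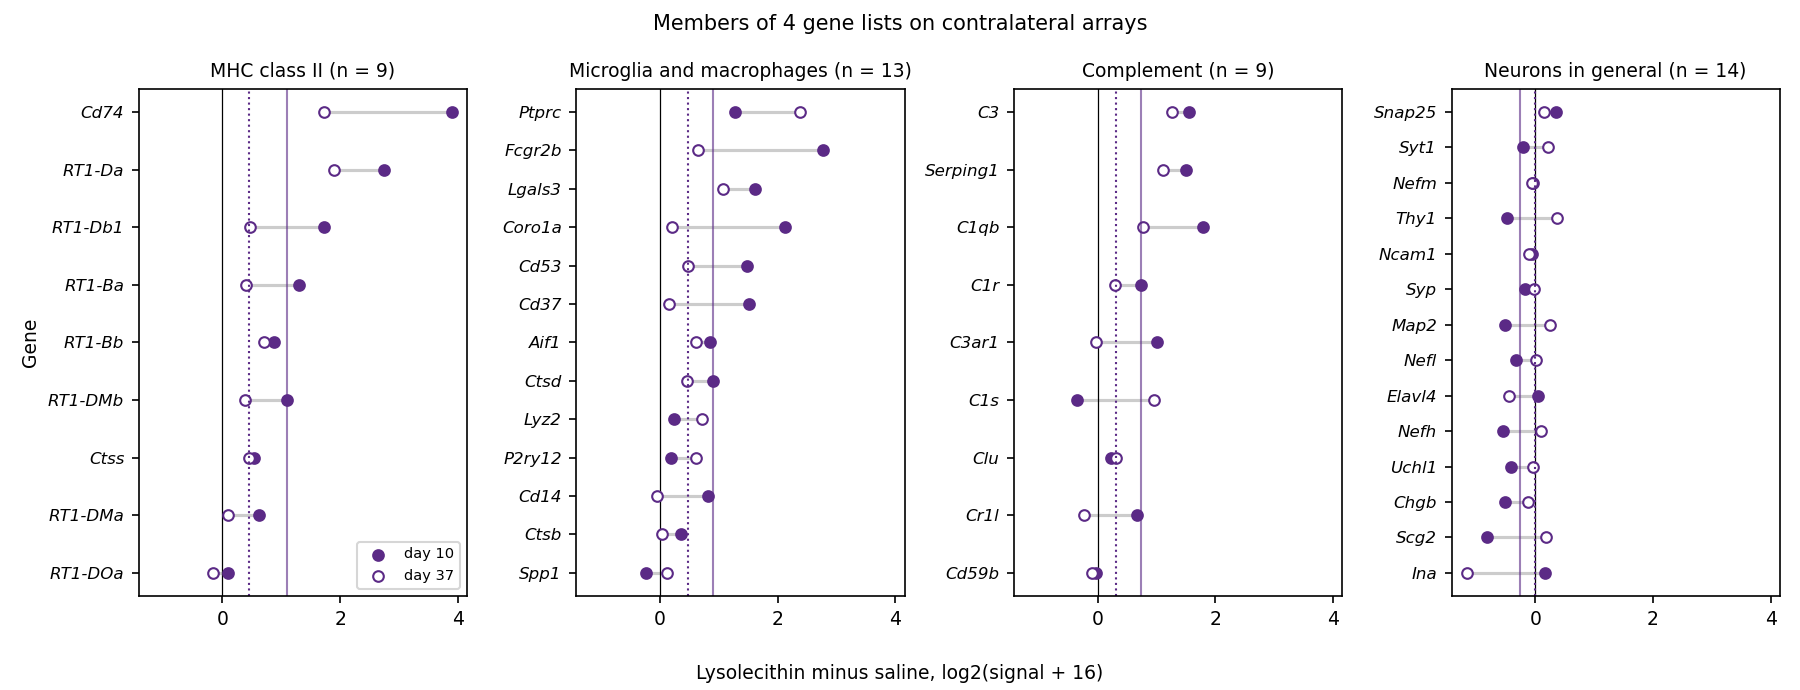
Difference between lysolecithin and saline contralateral arrays for each tested member of 4 gene lists, on day 10 (filled) and day 37 (open), in log2(signal + 16) on the horizontal axis. The solid and dotted vertical lines are the list medians of the 2 days, which stand at 1.09 and 0.45 for MHC class II, 0.90 and 0.48 for microglia and macrophages, 0.74 and 0.32 for complement and -0.26 and 0.00 for neurons.

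Glial and matrix genes made up most of the remaining leading genes. Timp1, an inhibitor of matrix metalloproteinases made by reactive astrocytes, had 4.95 and 6.86 after saline, both Absent, and 8.64 and 8.58 after lysolecithin, both Present, in probe set rc_AI169327_g_at. It was at least 6.03-fold higher after lysolecithin (limma adjusted p = 0.0683). Its other probe set, rc_AI169327_at, gave at least 1.56-fold (difference 0.64; limma adjusted p = 0.983), so the 2 probe sets shared a direction and not a size. Vim, the intermediate filament vimentin, had 10.46 and 9.97 against 11.59 and 11.63 (difference 1.39, SE 0.30; limma adjusted p = 0.186).

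S100a4, a calcium-binding protein of motile cells, had 8.26 and 8.09 after saline and 9.58 and 9.50 after lysolecithin (difference 1.37; limma adjusted p = 0.134). Pdpn, the membrane glycoprotein podoplanin, had 8.52 on both saline arrays and 9.53 and 9.48 after lysolecithin (difference 0.99; limma adjusted p = 0.24). For both genes the lysolecithin arrays of the 2 days were close to each other and above both saline arrays. Tspo, a mitochondrial protein used as a marker of glial reaction, was not Present on either saline array, and was at least 1.72-fold higher after lysolecithin. Anxa1, a phospholipid-binding protein of glia and leukocytes, was at least 2.09-fold higher by probe set rc_AI171962_s_at on the same basis. Hspb1, the small heat shock protein of injured neurons and astrocytes, was at least 1.84-fold higher by probe set M86389cds_s_at (limma adjusted p = 0.49), while its probe set rc_AA998683_at had 0.61 and -0.35 on the 2 days.

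The list for astrocytes as a whole did not move with Vim. Of 21 tested genes 9 were higher and 3 lower on both days, beside 20.2% and 21.8% of all probe sets, and the medians were -0.04 and 0.18. Vim was past 1.5-fold higher, and Slc4a4, the sodium bicarbonate cotransporter, past 1.5-fold lower. Aqp4 was lower by 0.71 and 0.44 on the log2 scale without passing, and the glutamate transporter Slc1a2 had differences of 0.43 and 0.55. The summed astrocyte signal was 161530 and 156932 on the saline arrays and 150771 and 175316 on the lysolecithin arrays.

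Of 19 tested genes of meninges, fibroblasts and extracellular matrix, 11 were higher on both days and 3 past 1.5-fold on both. The shares over all probe sets were 20.2% and 1.02%, and the list medians were 0.32 and 0.34. Mgp, an inhibitor of calcification, had 9.28 and 8.58 after saline and 10.81 and 9.53 after lysolecithin (difference 1.24; limma adjusted p = 0.134). The groups did not overlap, but the day 37 lysolecithin value lay close above the day 10 saline value. Fn1, fibronectin, had 9.51 and 9.13 against 10.30 and 10.07 (difference 0.86; limma adjusted p = 0.461). Col1a1, a chain of type I collagen, differed by 1.09 in probe set M27207mRNA_s_at, with 1.49 on day 10 and 0.68 on day 37. The summed signal of this list was 46123 and 39250 after saline and 40819 and 46937 after lysolecithin. The brightest member of the list, Sparc, had -0.79 and 0.39, while 15 of the 19 genes were higher on each day. The share of meningeal tissue in the samples was not tested. Grn, a lysosomal growth factor precursor of microglia and neurons, had 11.01 and 10.81 against 12.51 and 11.70 (difference 1.19; limma adjusted p = 0.124).

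**Figure D3:**
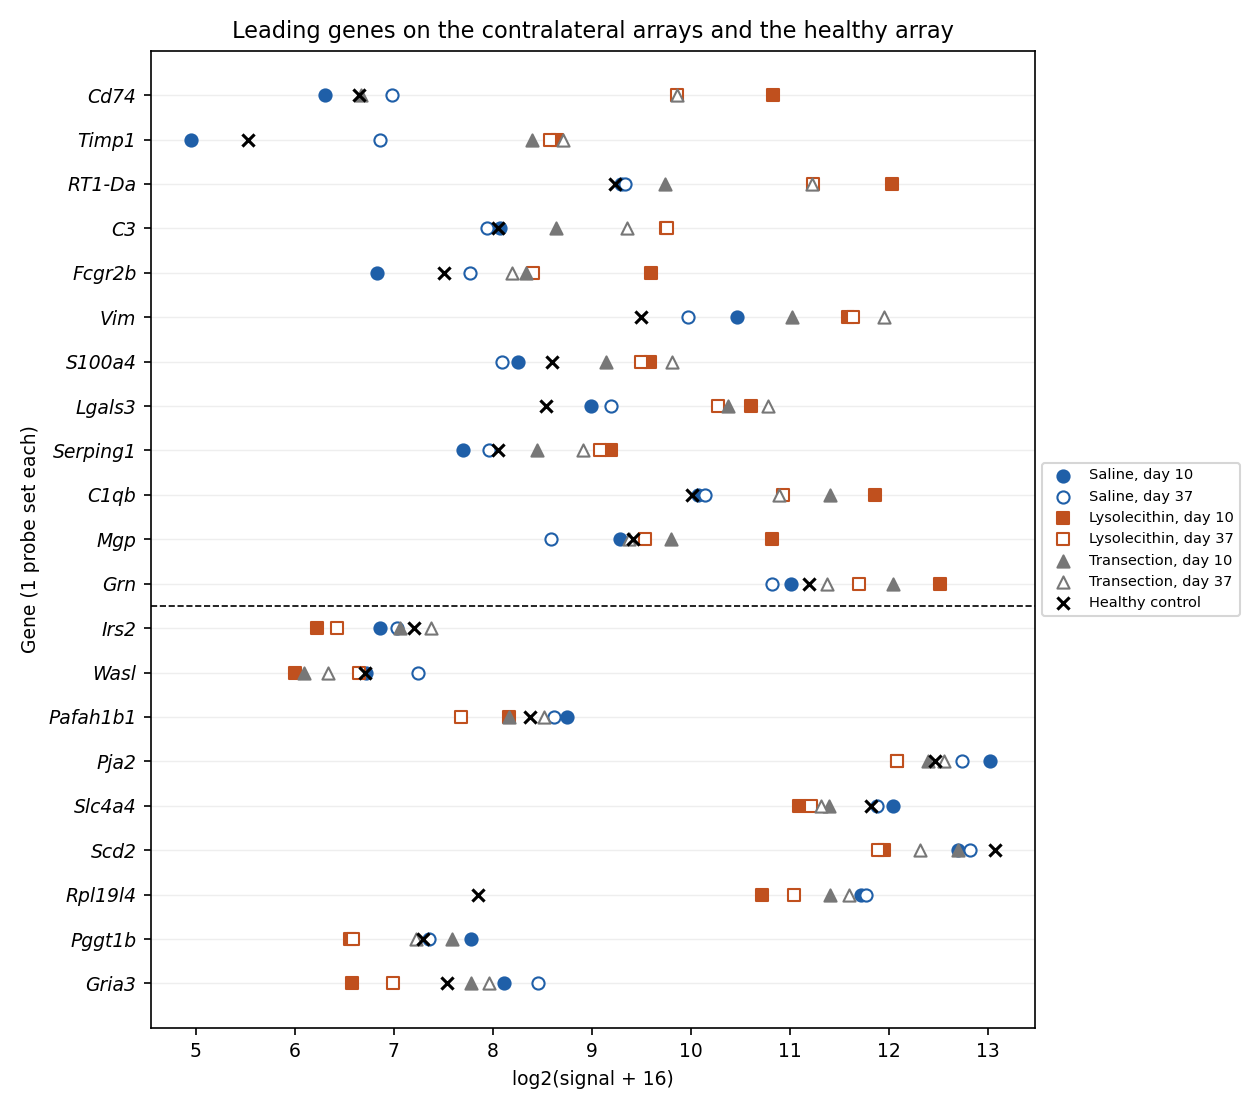
log2(signal + 16) of the leading genes on the 6 contralateral arrays and the healthy array, 1 probe set a gene, with filled symbols for day 10 and open symbols for day 37. Above the dashed line lysolecithin (squares) lies above saline (circles) for 12 genes and below it lysolecithin lies under saline for 9. Transection (triangles) often lies between or with lysolecithin, as for Cd74 on day 37 at 9.86. On day 10 the transection value of Cd74 lies with saline, at 6.66.

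Fewer probe sets were past 1.5-fold lower on both days (20) than higher (45), but by any size more were lower on both days (960, 21.8%) than higher (890, 20.2%). On day 10 alone 94 were past 2-fold lower against 72 higher. On day 37 the order turned, with 32 lower against 93 higher. Gria3, a subunit of AMPA-type glutamate receptors, had 8.12 and 8.46 after saline, both Present, and 6.57 and 6.99 after lysolecithin, both Absent, in probe set M36420_s_at. Saline was at least 2.84-fold higher (difference -1.50, SE 0.30; limma adjusted p = 0.134), and the groups did not overlap. The second Gria3 probe set, X54656_at, had -0.48 and -0.81 on the 2 days. Among 27 tested receptor genes 3 were higher and 8 lower on both days, beside 20.2% and 21.8% of all probe sets, and the medians were -0.08 and -0.10. Gria2, the subunit that blocks calcium entry, had -0.70 on day 10 and 0.26 on day 37.

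Scd2, a stearoyl-CoA desaturase of myelinating tissue, had 12.70 and 12.81 after saline and 11.95 and 11.89 after lysolecithin in probe set AF036761_at (difference -0.84; limma adjusted p = 0.35). The lysolecithin values of the 2 days were close. Of the 4 other tested Scd2 probe sets, 3 were lower on day 10 and higher on day 37. Slc4a4 had 12.04 and 11.88 against 11.08 and 11.21 (difference -0.81; limma adjusted p = 0.388). Pja2, a ubiquitin ligase of protein kinase A signalling, was lower in 2 probe sets on both days, by -0.80 in rc_AA894089_s_at and -0.76 in E13644cds_s_at, and close to saline in the third, D32249_s_at, at -0.11. Pafah1b1, the dynein regulator Lis1, had -0.77 in rc_AI234730_at and -0.22 and -0.03 in its other 2 tested probe sets. The genes Pggt1b, Wasl and Irs2 and the ribosomal protein gene Rpl19l4 completed the list, with mean differences of -0.996, -0.65, -0.62 and -0.86, all with a limma adjusted p of 0.315 or more. Rpl19l4 read 11.71 and 11.76 after saline, 10.71 and 11.04 after lysolecithin and 7.85 on the healthy array.

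The median of neuronal genes was below saline on day 10 and near it on day 37, and no member passed the test. Of 14 pan-neuronal genes 1 was higher and 5 lower on both days, beside 20.2% and 21.8% of all probe sets. The medians were -0.26 on day 10 and 0.00 on day 37. Their summed signal was 121947 and 113235 after saline and 99437 and 113364 after lysolecithin, with the day 10 lysolecithin array the lowest of the 4. The medians of 7 markers of glutamatergic projection neurons were -0.46 and -0.14, of 16 oligodendrocyte genes -0.11 and 0.00, and of 8 genes of vascular smooth muscle -0.47 and -0.05. Blood genes differed by day, with a summed signal of 16619 on the day 10 and 6326 on the day 37 lysolecithin array against 12756 and 9897 after saline. Acta2, the actin of smooth muscle, had -1.06 and -0.41, and Neurod1 -0.77 and -0.50, neither past 1.5-fold on both days. The part of cell composition in the results was not tested. Axon injury and regeneration genes had 8 of 24 higher and 5 lower on both days, beside the same 20.2% and 21.8%, and medians of 0.13 and -0.01. The injury-induced factor Atf3 had 0.55 and 0.01, and Jun 0.34 and 0.03 in probe set rc_AI175959_at.

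Ratios on single days, which have no replicate and no test, were led on day 10 by Cd74, RT1-Da, C1qb, Anxa2 and C3 at 3.90, 2.74, 1.78, 1.73 and 1.67 among well-detected probe sets, and all 5 were also higher on day 37. On day 37 the highest were Ppp1cb (2.21), RT1-Da (1.90), Cd74 (1.72), Vim (1.66) and Psme1 (1.54), a subunit of the proteasome activator. The lowest ratios did not repeat between days. On day 10 they were Pcmtd2 (-3.25), Ppp1cb (-1.44), Ap1s3 (-1.38), Enpp2 (-1.38) and Marcks (-1.36), all 5 of them positive on day 37. On day 37 they were Kctd13 (-1.79), Map2 (-1.45), Atp2b1 (-1.30), Camk2g (-1.18) and Ina (-1.17), of which Map2 codes for a dendritic and Ina for an axonal cytoskeletal protein. Their day 10 differences lay between -0.04 and 0.26.

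Set against the contralateral nuclei after transection, which share the same day and side, lysolecithin differed in no probe set by the limma test (0%, lowest adjusted p = 0.968), and 104 had an unadjusted p under 0.05. Cd74 in probe set X13044_at was 1.45 higher after lysolecithin than after transection (SE 0.47), with transection at 8.83 on day 10 and 10.10 on day 37. On day 10 the transection array of Cd74 was above the saline array of that day (7.61) and near the saline array of day 37 (8.60), and on day 37 it was near the lysolecithin array of that day (10.32). RT1-Da had the same order, at 9.74 and 11.22 after transection. Timp1, Lgals3, S100a4 and Vim differed between the 2 lesions by only 0.06, -0.13, 0.06 and 0.13 (lysolecithin minus transection). Both contrasts use the lysolecithin arrays, so their values are not independent.

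The healthy array gave a reference outside both groups. Across the tested probe sets it was less like the contralateral arrays (Pearson r from 0.934 to 0.95) than these were like each other (0.966 to 0.983). It also had the fewest Present calls of the series (3510). The part of this distance in the differences from healthy was not tested. Over the 45 probe sets higher on both days, the median difference from healthy was 1.17 and 0.90 for lysolecithin on days 10 and 37 and -0.14 and -0.03 for saline. For the 20 lower probe sets it was -0.79 and -0.69 for lysolecithin and 0.29 and 0.21 for saline. These probe sets had been picked for their distance from saline, and single genes differed from the medians. Saline was farther from healthy than lysolecithin for Rpl19l4 (3.88 against 3.02) and Pja2 (0.42 against -0.38), and Gria3 lay about as far on either side (0.75 and -0.76). The transection contralateral arrays, whose signals did not enter the 1.5-fold choice although their calls counted in the detection filter, were above healthy on both days in 34 of the 45 (75.6%), against 34% of all tested probe sets, with medians of 0.39 and 0.73 on days 10 and 37 beside -0.03 and -0.01 over all. Of the 20 lower probe sets 6 (30%) were below healthy on both transection arrays, against 38.6% of all. A filter on the 4 compared arrays alone, Present on both arrays of a group, was chosen after seeing the data. With it, 34 of 40 higher probe sets (85%) were above healthy on both transection arrays, against 35.1% of the 3771 kept. All 40 were Present on both lysolecithin arrays, the group in which they were high, so this filter shares in the choice.

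On the lesion side, whose signals did not enter the 1.5-fold choice although their calls counted in the detection filter, lysolecithin was above saline on both days in 34 of them (75.6%), against 28.1% of all tested probe sets. The median lesion-side difference of the 45 was 0.51 on day 10 and 0.47 on day 37, beside -0.01 and -0.02 over all, and 1.15 and 0.83 on the contralateral side that had picked them. Of the 20 lower probe sets 7 (35%) were lower on both days on the lesion side, against 31.2% of all. With the filter on the 4 compared arrays alone, 33 of 40 higher probe sets (82.5%) were above saline on both days on the lesion side, against 27.1% of the 3771 kept. The 40 met that filter through the lysolecithin arrays, in which they had been picked as high. The labels do not say whether the nuclei of both sides came from the same animals.

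Cd74 on the lesion side had 8.15 and 8.27 after saline and 9.46 and 9.26 after lysolecithin on days 10 and 37 in probe set X13044_at, so that the lesion-side lysolecithin arrays lay below the contralateral ones (11.51 and 10.32). RT1-Da had 9.10 and 9.39 against 9.88 and 10.71, and C3 in probe set X52477_at had 8.30 and 8.10 against 8.81 and 8.69. Timp1 in rc_AI169327_g_at had 5.14 and 5.17 against 7.33 and 7.31. Gria3 in M36420_s_at had 8.05 and 7.39 after saline and 7.50 and 7.80 after lysolecithin, and these groups overlapped. The metallothionein probe set rc_AI176456_at had 11.51 and 11.82 against 12.77 and 12.97.

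The difference between lysolecithin and saline was compared between sides in the 6 lesion-minus-contralateral pairs. No probe set passed the limma threshold (0%, lowest adjusted p = 1), and 139 had an unadjusted p under 0.05. For Cd74 in X13044_at the lesion-side difference was smaller by 1.66 (estimate -1.66, SE 0.38), for RT1-Da by 1.27 (estimate -1.27, SE 0.43) and for C3 in X52477_at by 1.20 (estimate -1.20, SE 0.29), all with a limma adjusted p of 1. With 3 residual degrees of freedom, side differences of these sizes did not pass. The 3 genes had been named for large contralateral differences, which this contrast subtracts, so the choice itself favours a smaller difference on the lesion side.

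**Figure D4:**
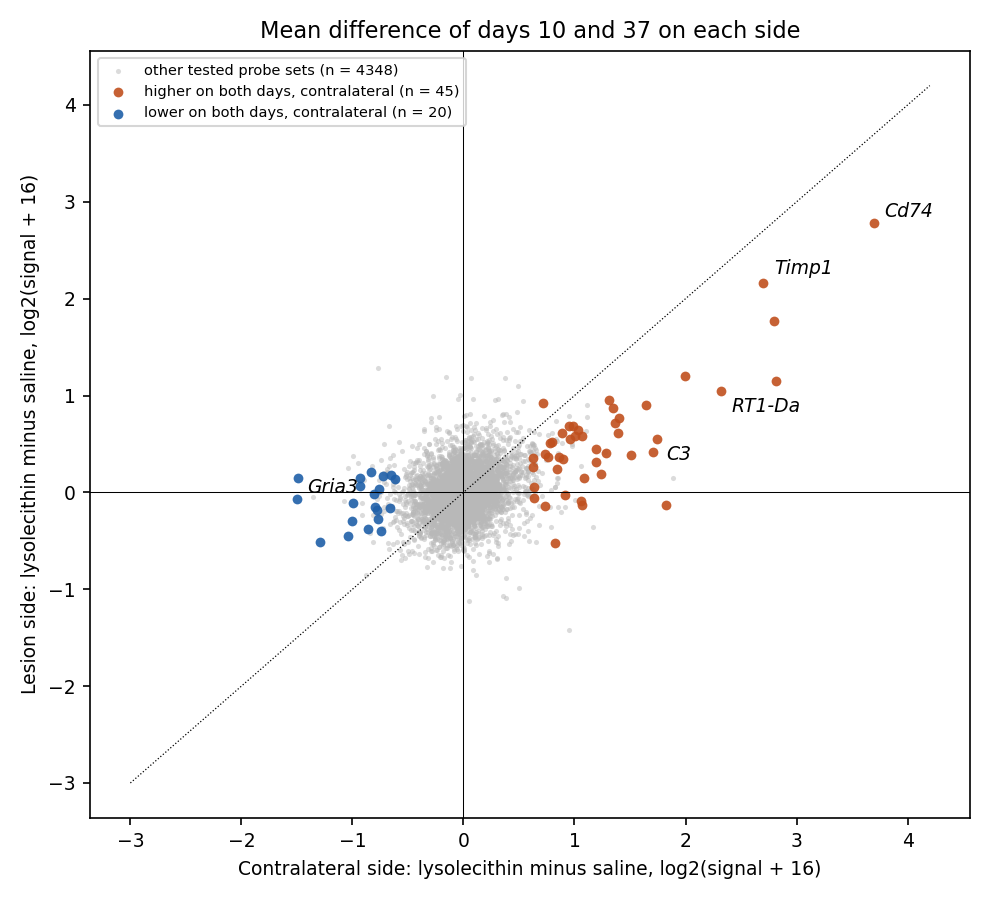
Mean difference between lysolecithin and saline over days 10 and 37 on the contralateral side (horizontal axis) and the lesion side (vertical axis), in log2(signal + 16), for all tested probe sets. Of the 45 probe sets higher contralaterally on both days (orange), 34 were higher on both days on the lesion side too, most of them under the dotted line of equal size, and the 20 lower ones (blue) lie around 0 on the lesion side. Orange and blue points were picked by their contralateral differences, which favours smaller differences on the lesion side.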

How the data were processed

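Total RNA from pontine nuclei had been extracted with Trizol and hybridised as biotin-labelled cRNA to Affymetrix rat arrays, per the labels. The submitters' processing notes name MAS5, without a version. Each deposited file lists, for every probe set, a MAS5 intensity on a linear scale, and per the file headers it also gives a call with its p-value. A value table deposited for the whole series has log2 values whose making is not stated. Its columns followed their own array at a correlation of 0.802 to 0.968 and the table served as an alternative. Arrays give no counts, so their number limits the precision.

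Signals were used as log2(signal + 16) with the authors' scaling. Of 8799 probe sets, 4413 entered the tests, being no control and Present on 3 or more arrays, 3636 with 1 gene symbol, for 2713 genes. The platform annotation gives 1 symbol to 6283, several to 280 and none to 2236. R 4.3.3 with limma 3.58.1 fitted intervention and day over the 6 contralateral arrays (2 residual degrees of freedom), with an intensity trend and Benjamini-Hochberg adjustment at 0.05. A second contrast set lysolecithin against transection. Another used 6 lesion-minus-contralateral pairs. The fits were tested on simulated data. Python 3.11.15 with pandas and matplotlib served for promoters and figures. "At least" folds raise each dimmer signal to its array's lowest Present signal.

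Day pairs the arrays by label only. The day changes of saline and lysolecithin correlated at -0.419 across probe sets, of saline and transection at -0.128 and of lysolecithin and transection at 0.169, so arrays of 1 day did not deviate together.

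Named genes were those past the threshold, then up to 12 each way among 1-symbol probe sets past 1.5-fold on both days, without overlap and Present on both brighter arrays, list members past 1.5-fold or of high signal, and the 5 highest and lowest ratios of each day with a signal over 200. Other list members, probe sets and the promoters were chosen after their values were seen. The comparison, the 37 gene lists and the rules were chosen with earlier results of these data known. Other settings are given in the closing section. No member of any list passed the threshold, and the list of sex-linked genes had no tested member. The 22 lists with tested members that are not described above (cytokines, endothelium, choroid plexus, inhibitory neurons, brainstem transmitters, cerebellum, forebrain, immediate early genes, glucocorticoid response, clock, apoptosis, chaperones, respiratory chain, glycolysis, lipid synthesis, vesicles, channels, neuropeptides, cytoskeleton, ribosome, antioxidants and cell cycle) had medians of the mean difference between -0.10 and 0.22. Past 1.5-fold on both days among them were Anxa1 (glucocorticoid response) and Rpl19l4 (ribosome).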

Additional observations from a re-analysis of the deposited data

Results flagged for a closer look

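Among the genes named for a ratio on a single day, 9 had differences of opposite sign on the 2 days, 5 of them negative on day 10. The difference between the days was not tested, since each day has 1 array a group. Ppp1cb, a catalytic subunit of protein phosphatase 1, had a log2 difference of -1.44 on day 10 and 2.21 on day 37 in probe set S78218_g_at, while its probe set S78218_at had -0.46 and 0.30. Pcmtd2 had -3.25 and 1.42 in probe set rc_AI639155_at and 0.80 and -0.59 in rc_AI639429_f_at. Marcks, an actin-binding substrate of protein kinase C, had -1.36 and 1.48 in probe set rc_AA859896_at, and its other probe sets lay between -0.27 and 0.51. Ap1s3 had -1.38 and 0.41, and Enpp2 -1.38 and 0.45 in probe set D28560_g_at. The other 4 were positive on day 10 and negative on day 37, with 0.26 and -1.79 for Kctd13, 0.0249 and -1.45 for Map2, 0.20 and -1.18 for Camk2g and 0.17 and -1.17 for Ina. Groups of 2 arrays are too small for a check of single outlying arrays.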

How the results depend on the processing

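The count of probe sets past the limma threshold between lysolecithin and saline (1, higher) depended on the settings. It was 20 with the 4 arrays fitted alone, 15 with 15 arrays and side in the model, 6 with detection as Present on both arrays of a group, and 4 in the deposited series value table. Most of these are genes described above as not passing: with the 4 arrays alone Cd74, RT1-Da, C3, Timp1, Vim, Lgals3, S100a4, C1qb, Grn, Serping1, Fcgr2b and Mgp passed, all higher, and with 15 arrays Gria3 and Pja2 passed as lower. Over the 17 settings Cd74 (X13044_at) passed in 9, C3 (X52477_at) in 8 and Timp1 (rc_AI169327_g_at) in 8. It was 0 without the detection filter (317 at an unadjusted p under 0.05), with quantile normalization (151), with median centring (151) and without the intensity trend (167). It stayed at 1 with a pseudocount of 1 or 64. Without the day, which is the replicate block of this design, it was also 0 (191 at an unadjusted p). Leaving out 1 array gave 0 to 66. It was 0 without the day 10 and 9 without the day 37 lysolecithin array, 33 (30 higher, 3 lower) and 66 (38 higher, 28 lower) without the day 10 and day 37 saline array, and 21 (20 higher, 1 lower) without either transection array. A group left with 1 array is assumed to vary like the others. Pairing the saline arrays with the other day, chosen after seeing the data, gave 12, all higher. Between lysolecithin and transection the count was 0 in every setting that kept all arrays, also without the replicate block (122 at an unadjusted p), and 0 to 15 when 1 array was left out. The side contrast stayed at 0 throughout (86 to 325 at an unadjusted p).

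The 45 probe sets past 1.5-fold higher on both days became 190 without the detection filter, which adds dim probe sets. The 20 lower became 121 on that setting, 10 with a pseudocount of 64, 13 with Present on both arrays, 38 in the series value table and 35 with the crossed saline days. In the series value table the differences of Mllt3 (0.0399) and Ptprc (-0.00543) changed sign. The causes were not tested. With 1 array a condition and 2 residual degrees of freedom, signals near the detection limit bound what the arrays can show.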
